A study of Mus musculus with 4 samples.

Results

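The GABA and glycine set comprised 6 genes, chosen by name for their roles in making, storing, taking up or breaking down the inhibitory transmitters: Gad1, Gad2, Slc32a1, Slc6a9, Slc6a5 and Abat. They are 6 of 13452 Ensembl genes in the deposited table. The table listed 13 isoforms for 5 of them and no isoform of Slc6a5, which was not analysed here. Isoforms were counted from long reads of single-cell cDNA of the mouse retina, made with the 10x Genomics chemistry and sequenced on a nanopore instrument. All 4 libraries were from retinas of wild-type male mice of the inbred strain C57BL6/J. The first library without enrichment was from postnatal day 40 and the second has no age in the labels, whereas the library labelled CD73 enrichment was from postnatal week 8 and the one labelled CD90.2 enrichment from postnatal month 4. Photoreceptors carry CD73 on their surface, and neurons such as ganglion cells carry CD90.2. According to the protocol, magnetic beads removed cells with CD73 and retained cells with CD90.2, but the design text speaks of FACS.

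The table gives 1 column of whole-number counts for each of 6 cell classes: amacrine cells, bipolar cells, cones, Müller glia, rods and retinal ganglion cells. The columns name no library, so each class is 1 pooled sample without replicates and no test between classes was made. Differences are described by fixed limits of size, and the 95% intervals (exact Poisson for levels, exact Clopper-Pearson for shares, exact conditional binomial for ratios) cover counting error only. Levels are counts per 1000000 counts of the column (CPM). The columns held between 3509890 counts (ganglion) and 55437340 counts (rod), with 48248340 in the amacrine column. A count of 0 allows up to 3 counts, equal to 0.0541 CPM for rods and 0.855 CPM for ganglion cells. Fewer expressing cells in a class and less RNA per cell cannot be told apart in these sums, nor can enrichment, age and cell class.

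GABA is made from glutamate by glutamate decarboxylase, of which Gad1 encodes the GAD67 form and Gad2 the GAD65 form. The vesicular transporter VGAT, encoded by Slc32a1, loads both GABA and glycine into synaptic vesicles. Slc6a9 encodes GlyT1 and Slc6a5 encodes GlyT2, the glycine transporters of the plasma membrane, and Abat encodes GABA transaminase, the mitochondrial enzyme that breaks GABA down. Amacrine cells are inhibitory interneurons of the inner retina. Most use GABA or glycine, and GlyT1 is a known marker of the glycinergic ones.

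The amacrine column had the highest level of each of the 5 genes measured. It held 7168 of their 7540 counts, and 48248340 of the 149645836 counts of all columns. For 2 of the genes the amacrine class was not highest under every setting. With Ensembl transcripts only, Slc6a9 was highest in rods, with an amacrine share of 32.9% and an amacrine level of 1.80 CPM. Abat, with 34 counts in all, was then highest in Müller glia, with an amacrine share of 40.9%, as it was with models of 2 or more exons only. Of all genes with at least 10 counts, 21.3% were highest in the amacrine class. The genes of the set were chosen with earlier results of these data known. Comparisons of them with all genes are therefore not independent of that choice. At least 80% of the CPM summed over the 6 classes lay in the amacrine class for Gad1 (97.4%) and Slc32a1 (90.8%). That limit was passed by 4.57% of all genes, and the median amacrine share over all genes was 14.3%. Slc6a9 (74.6%), Gad2 (69.8%) and Abat (55.5%) lay below it, the first with further counts in rods and the second in ganglion cells. The amacrine levels were also divided by the mean length of the isoforms with a model. Per kilobase they were 39.1 CPM for Gad1, 14.4 CPM for Slc32a1, 4.70 CPM for Slc6a9, 3.20 CPM for Gad2 and 0.216 CPM for Abat. The order of the genes was the same without this division. Long reads were counted, so counts need not rise with transcript length.

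**Figure D1:**
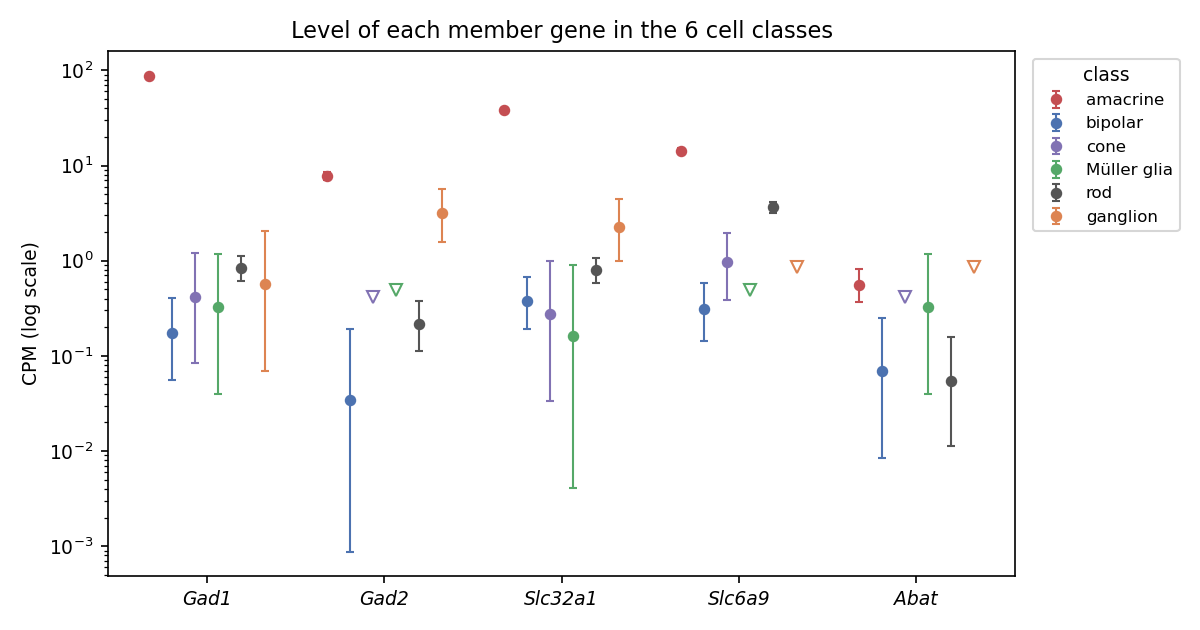
CPM of the 5 genes measured in each of the 6 cell classes, with exact Poisson 95% intervals for counting error only. Each class is 1 pooled column, and an open triangle marks a class at 0 counts, placed at the limit of 3 counts. The amacrine point is the highest filled point for every gene, and the rod level of Slc6a9 (3.63 CPM) and the ganglion level of Gad2 (3.13 CPM) are the highest values outside that class.

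Gad1 lies on the plus strand at chr2:70553072-70602014 (build GRCm38, also called mm10). It had 4224 counts in amacrine cells, 46 in rods, 5 in bipolar cells, 3 in cones and 2 each in Müller glia and ganglion cells. The amacrine level was 87.5 CPM, against 0.830 CPM in rods, 0.570 CPM in ganglion cells, 0.411 CPM in cones, 0.326 CPM in Müller glia and 0.172 CPM in bipolar cells. The amacrine class thus stood apart from the other 5, all of which were below 1 CPM. The amacrine level was 106 times the rod level (79.0 to 144) and 154 times the ganglion level (42.5 to 1269), the latter resting on 2 counts.

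Gad2, at chr2:22622205-22693874 on the same strand, had 377 counts in amacrine cells, 12 in rods, 11 in ganglion cells, 1 in bipolar cells and none in cones or Müller glia. Its amacrine level was 7.81 CPM (7.04 to 8.64) and its ganglion level 3.13 CPM (1.56 to 5.61), while rods were at 0.216 CPM and bipolar cells at 0.0345 CPM. The amacrine level was 2.49 times the ganglion level (1.38 to 5.04), below the limit of 4-fold. It was 36.1 times the rod level (20.4 to 70.5), at least 19.0-fold higher than in cones and at least 16.0-fold higher than in Müller glia. Gad1 supplied 91.8% of the counts of both decarboxylase genes in amacrine cells (91.0 to 92.6) and 79.3% in rods (46 of 58 counts, 66.6 to 88.8). In ganglion cells it supplied 15.4% (2 of 13 counts, 1.92 to 45.4), so Gad2 held the larger part there and the interval lies below those of the amacrine and rod columns.

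Slc32a1, at chr2:158610767-158615748, had a single isoform of 2 exons, the annotated transcript. It had 1848 counts in amacrine cells, 44 in rods, 11 in bipolar cells, 8 in ganglion cells, 2 in cones and 1 in Müller glia. The amacrine level of 38.3 CPM (36.6 to 40.1) was 48.3 times that of rods (35.8 to 66.6) and 101 times that of bipolar cells (56.3 to 203). Ganglion cells, at 2.28 CPM, came second, and the amacrine level was 16.8 times theirs (8.51 to 39.0). The order of the classes below the amacrine one thus differed between the genes of GABA supply: rods followed for Gad1 and ganglion cells for Gad2 and Slc32a1. The rod and ganglion intervals overlap for Gad1 (0.607 to 1.11 CPM and 0.0690 to 2.06 CPM) and for Slc32a1 (0.577 to 1.07 CPM and 0.984 to 4.49 CPM), but not for Gad2. Overlap of such intervals does not show equal levels, and the ratio of ganglion to rod was not calculated.

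The upstream sequences of these 3 genes are shown because their products act in one pathway and were all highest in one class. They are from RefSeq on GRCm38.p6, plus strand, and end before the annotated start nearest to the RefSeq start. The Gad1 stretch precedes the annotated start of the long isoform at 70562042 and lies within an intron of another Gad1 transcript, which starts at 70553072. Capitals mark CANNTG, the E-box, a motif read by basic helix-loop-helix factors and identical in form on both strands.
Gad1 (chr2:70561879-70562041): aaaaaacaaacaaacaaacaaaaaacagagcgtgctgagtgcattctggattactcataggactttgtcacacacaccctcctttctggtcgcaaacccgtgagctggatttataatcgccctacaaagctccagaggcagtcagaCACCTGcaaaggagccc
Gad2 (chr2:22622077-22622204): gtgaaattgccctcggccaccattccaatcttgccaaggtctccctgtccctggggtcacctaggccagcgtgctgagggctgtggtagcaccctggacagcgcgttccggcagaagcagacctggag
Slc32a1 (chr2:158610508-158610757): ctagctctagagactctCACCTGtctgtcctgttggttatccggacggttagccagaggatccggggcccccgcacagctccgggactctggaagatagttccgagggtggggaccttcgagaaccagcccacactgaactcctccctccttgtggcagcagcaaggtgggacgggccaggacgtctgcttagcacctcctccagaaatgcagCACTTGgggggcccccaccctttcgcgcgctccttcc
In the full windows of 300 bases around the RefSeq starts, Gad1 had 1 match, Gad2 had 1, past the stretch shown, and Slc32a1 had 2. Of 32851 such mouse windows, 72.3% held at least 1 match, so a match in these windows is common. Slc6a9 had 3 windows, of which the most upstream held 4 matches and the others 0. At least 3 matches were present in 17.6% of all windows.

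Abat, at chr16:8513429-8621568, was the least abundant gene, with 27 counts in amacrine cells, 3 in rods, 2 in bipolar cells, 2 in Müller glia and none in cones or ganglion cells. Its amacrine level was 0.560 CPM (0.369 to 0.814). That was 10.3 times the rod level (3.18 to 53.3), 8.12 times the bipolar level (2.04 to 70.4) and 1.72 times the Müller level of 0.326 CPM (0.431 to 14.9). An amacrine excess over Müller glia was therefore not detectable at this depth. The amacrine level was 1.36 times the level that 3 counts would give in cones. The interval of the 0 counts in cones (0 to 0.505 CPM) overlaps the amacrine interval. The 0 counts of ganglion cells allow 0.855 CPM, more than the amacrine level. Ganglion cells could therefore not be ordered against amacrine cells. For cones the interval of the ratio began at 1.03, so an amacrine excess there was at the edge of counting error. Of the amacrine counts, 15 came from the annotated transcript and 12 from an unannotated isoform.

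Slc6a9 lies on the plus strand at chr4:117834506-117875198. It had 692 counts in amacrine cells, 201 in rods, 9 in bipolar cells, 7 in cones and none in Müller glia or ganglion cells. The levels were 14.3 CPM in amacrine cells (13.3 to 15.5), 3.63 CPM in rods (3.14 to 4.16), 0.958 CPM in cones and 0.310 CPM in bipolar cells. Rods, second in order, thus reached 25.3% of the amacrine level, and the ratio of amacrine to rod was 3.96 (3.38 to 4.65), just under the 4-fold limit. Without isoform 3, which lies downstream of the stop codon, the ratio was 5.30 (4.44 to 6.37), past that limit. The amacrine level was 46.2 times that of bipolar cells, 15.0 times that of cones, at least 29.3-fold higher than in Müller glia and at least 16.8-fold higher than in ganglion cells.

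Read against all genes with at least 10 counts, an amacrine level at least 4-fold over bipolar cells was seen in 15.1%, over cones in 15.4%, over Müller glia in 14% and over rods in 22.4%. Over ganglion cells the share was 10.6%. Of the 5 genes, 5 passed this limit over bipolar cells, 4 over cones, 4 over Müller glia, 4 over rods and 3 over ganglion cells. Gad1 and Slc32a1 passed it over every other class, as did 1.38% of all genes. Without isoform 3 of Slc6a9, 5 genes passed over rods, and 3, Slc6a9 included, over every other class. As the set was chosen with earlier results of these data known, its comparison with all genes is not independent of that choice.

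The isoforms of Slc6a9 differed between amacrine cells and rods by their first exon. The gene has alternative starts, known to give GlyT1 proteins that differ in their first residues, GlyT-1a from the upstream start and GlyT-1b from the inner one. The distinct coding bases of each start are shown because the amacrine and rod columns differed in their use. They are from GENCODE M21 transcripts on GRCm38, plus strand, with the bases particular to the start in capitals and the first 30 bases of the shared next exon (chr4:117855875-117855904) in lower case.
Upstream start (chr4:117843106-117843135): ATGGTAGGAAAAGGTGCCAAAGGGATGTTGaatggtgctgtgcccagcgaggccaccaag
Inner start (chr4:117849380-117849466): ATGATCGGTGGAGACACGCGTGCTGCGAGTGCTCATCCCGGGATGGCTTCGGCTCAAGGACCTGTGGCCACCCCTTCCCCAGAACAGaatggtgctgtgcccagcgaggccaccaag
The upstream start contributes 30 coding bases (10 codons). The inner exon has annotated start codons at 117849380 and 117849422, which give 87 bases (29 codons) or 45 bases (15 codons), all in frame with the shared exon.

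The most abundant isoform, of 13 exons, began at the inner start at base 117849370 and is not an annotated transcript, although all 12 of its introns are in GENCODE M21. It had 571 counts in amacrine cells, 35 in rods, 2 in bipolar cells and 1 in cones. The second, the annotated transcript of 14 exons from the upstream start, had 87 counts in amacrine cells, 94 in rods, 4 in bipolar cells and 4 in cones. The inner-start isoform thus held 82.5% of the gene's amacrine counts (79.5 to 85.3) and 17.4% of its rod counts (12.4 to 23.4). The upstream-start isoform held 12.6% in amacrine cells (10.2 to 15.3) and 46.8% in rods (39.7 to 53.9). The most abundant isoform differed between these classes and the share of the first differed by 65.1 percentage points, past the limit of 50 points used to call a switch. By the same rule 10.8% of 6196 genes with 2 or more isoforms were switched between amacrine cells and rods.

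Another isoform from the inner start, isoform 4 in the plot of models, had 34 counts in amacrine cells and 1 in rods. It left the shared second exon at an earlier donor, which is also in GENCODE M21, and so lacked 83 bases (27 codons and 2 bases) of coding sequence, a length that is not a multiple of a codon. The exon is shown because these isoforms differ only by its end, with the bases left out in capitals.
Shared exon (chr4:117855875-117856031): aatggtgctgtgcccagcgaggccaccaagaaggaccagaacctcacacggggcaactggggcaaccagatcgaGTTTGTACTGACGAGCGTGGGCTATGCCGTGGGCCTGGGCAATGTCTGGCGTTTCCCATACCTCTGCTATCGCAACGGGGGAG
Isoform 5 began at the upstream start and ended within an intron, after 12 exons. It had 20 counts in rods and none elsewhere, and covered 80.9% of the coding bases.

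Summed over isoforms, the inner start had 605 counts in amacrine cells (12.5 CPM, 11.6 to 13.6) and 36 in rods (0.649 CPM, 0.455 to 0.899). The upstream start had 87 counts in amacrine cells (1.80 CPM, 1.44 to 2.22) and 114 in rods (2.06 CPM, 1.70 to 2.47). The ratio of amacrine to rod was 19.3 for the inner start (13.8 to 27.8) and 0.877 for the upstream start (0.656 to 1.17). The amacrine excess of the gene over rods thus lay in the inner start, and for the upstream start the interval of the ratio includes 1. Of the counts from these starts, the inner one held 87.4% in amacrine cells (84.7 to 89.8) and 24.0% in rods (36 of 150, 17.4 to 31.6). In bipolar cells 4 of 6 such counts and in cones 4 of 5 were from the upstream start, too few to place those classes.

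**Figure D2:**
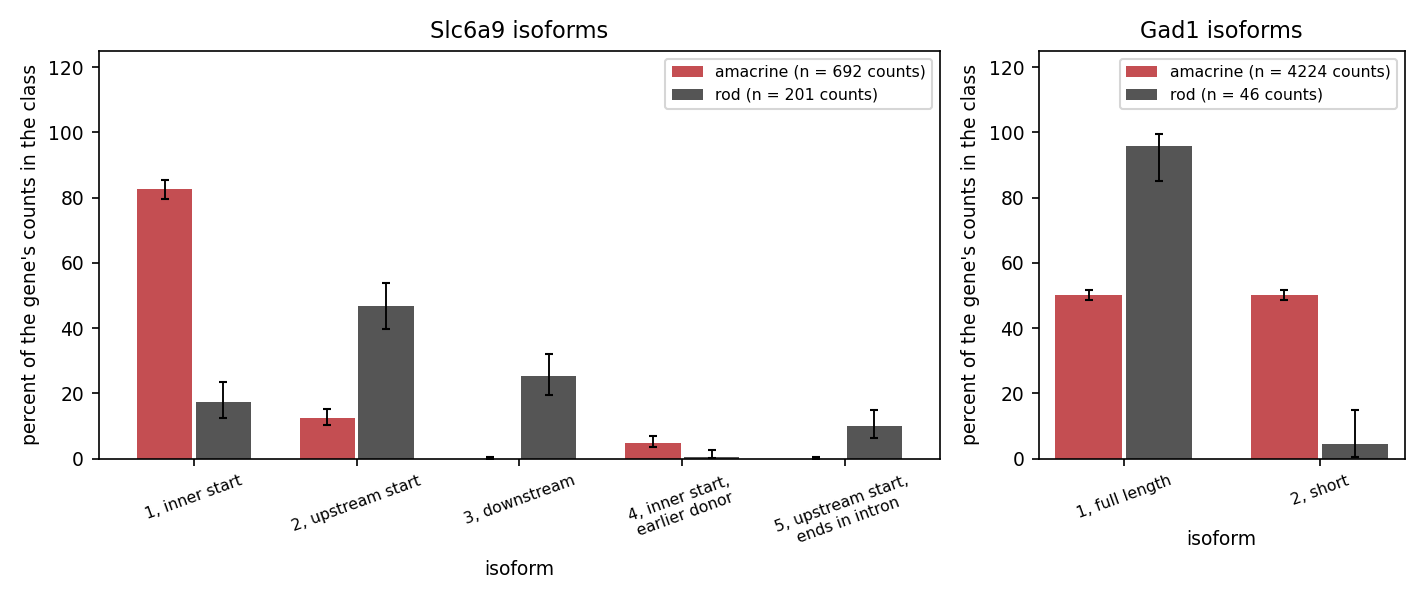
Share of the gene's counts held by each isoform of Slc6a9 (left) and Gad1 (right) in amacrine cells and rods, with exact Clopper-Pearson 95% intervals. Inner-start isoform 1 of Slc6a9 holds 82.5% in amacrine cells and 17.4% in rods, and the short isoform of Gad1 holds 50% and 4.35%.

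The remaining Slc6a9 isoform, isoform 3, an annotated transcript of 2 exons and 229 bases, had 51 counts in rods, 3 in bipolar cells, 2 in cones and none in amacrine cells. It lies at chr4:117874529-117875196, downstream of the stop codon of the main transcript, and holds none of its coding bases. It lies within B4galt2, a galactosyltransferase gene on the minus strand, whose level was 2.01 CPM in amacrine cells and 0.956 CPM in rods. Ccdc24, also on the minus strand (chr4:117866524-117872557), overlaps the last exon of the main Slc6a9 transcripts and that of isoform 5. It stood at 88.5 CPM in rods, 60.8 CPM in cones and 1.08 CPM in amacrine cells. B4galt2 also overlaps the end of the last exon of the main transcripts. Whether the counting used the strand is not known, and the part of these genes in the rod counts of Slc6a9 was not tested. Without the downstream model, Slc6a9 had 150 counts and 2.71 CPM in rods, which was 18.9% of the amacrine level, and its amacrine share was 79.9%.

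**Figure D3:**
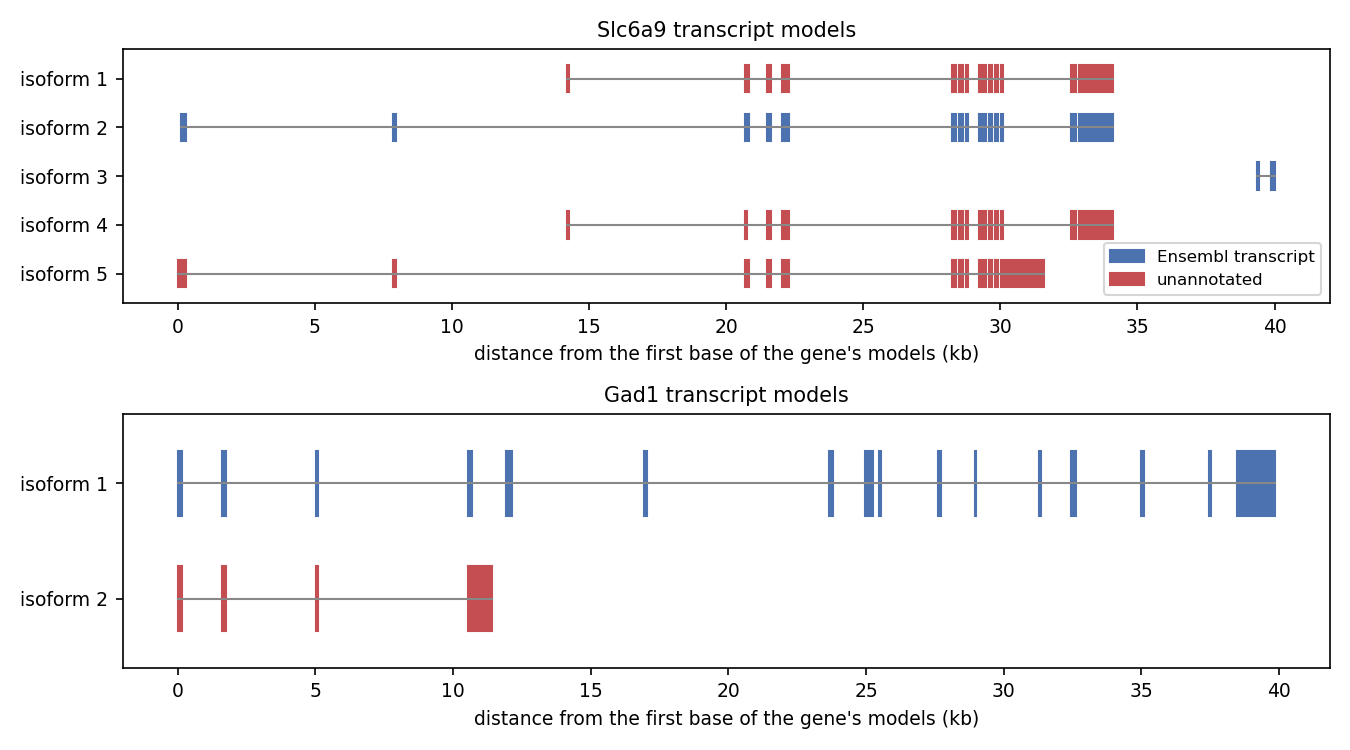
Deposited transcript models of Slc6a9 (top) and Gad1 (bottom), with exons as boxes and introns as lines, against the distance in kb from the first base of the gene's models. Isoforms 1 and 4 of Slc6a9 share the inner start, 2 and 5 the upstream start, and isoform 3 lies apart, and isoform 2 of Gad1 ends after 4 exons.

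Gad1 had 2 isoforms with the same first base. The annotated one has 17 exons and 3234 bases, and the unannotated one has 4 exons and 1247 bases. The short isoform keeps the first 3 introns, all in GENCODE M21, but its exon 4 runs 712 bases into intron 4, which is 1204 bases long, and ends there at base 70573576 of chromosome 2. It covers 301 of 1779 coding bases (16.9%), in 3 of 16 coding exons. The join that only the long isoform has is shown, from GENCODE M21 on GRCm38, with the end of exon 4 (chr2:70572835-70572864) in lower case and the start of exon 5 (chr2:70574069-70574098) in capitals.
Gad1 exons 4 and 5: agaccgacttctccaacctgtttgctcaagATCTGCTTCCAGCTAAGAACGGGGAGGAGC
The long isoform had 2112 counts in amacrine cells, 44 in rods, 4 in bipolar cells, 3 in cones, 1 in ganglion cells and 2 in Müller glia. The short isoform had 2112 counts in amacrine cells, 2 in rods, 1 in bipolar cells, 1 in ganglion cells and none in cones or Müller glia. The short isoform thus held 50% of the Gad1 counts in amacrine cells (48.5 to 51.5) and 4.35% in rods (0.531 to 14.8). The difference of 45.7 percentage points was below the 50-point limit, and no switch was called. The amacrine counts of the isoforms were exactly equal, which among 522 genes with 2 or more isoforms of at least 1000 amacrine counts held for Gad1 alone (0.192%). How counts were assigned to isoforms is not known, and its part in this equality, and so in the 50% share, was not tested. With the annotated isoform alone the amacrine level of Gad1 was 43.8 CPM.

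Gad2 had 3 isoforms. The annotated one, of 16 exons, covered the whole coding region and had 351 counts in amacrine cells, 11 in rods, 11 in ganglion cells and 1 in bipolar cells, so all ganglion counts were of this form. It ended at base 22691028, short of the annotated end at 22693874. The others were unannotated, with 13 amacrine counts each, 3.45% of the gene's amacrine counts (1.85 to 5.82). One of them had a model of 4 exons that skipped exon 4, of 234 bases, had 1 count in rods and shared 2 of its 3 introns with GENCODE M21, while the other had no model. Of all counts, the unannotated isoforms held 73.0% for Slc6a9, 49.4% for Gad1, 35.3% for Abat and 6.73% for Gad2, whereas the median over genes was 12%. All counts of Slc32a1 were of its annotated transcript.

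The class labels were checked against marker lists. All 5 amacrine markers (Tfap2a, Tfap2b, Tfap2c, Pax6 and Meis2, transcription factors) were highest in the amacrine column. They summed to 626 CPM there, 40.7 CPM in ganglion cells, 29.5 CPM in Müller glia, 16.4 CPM in rods, 5.93 CPM in bipolar cells and 4.93 CPM in cones. Tfap2a and Tfap2c were at 0 in bipolar cells, cones and Müller glia, and Meis2 was at 0 in Müller glia as well. Of the other lists, all 6 ganglion, 6 Müller, 6 bipolar, 6 rod and 6 cone markers were highest in their own column.

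Markers of other cells were also present in the amacrine column, whose sums were 382 CPM for ganglion, 923 CPM for Müller, 189 CPM for rod, 61.1 CPM for cone and 5.64 CPM for bipolar markers. Kcnj10, a Müller potassium channel, was at 0 there, as were Grm6 and Trpm1 of bipolar cells. Horizontal cells, the other inhibitory interneurons of the retina, have no column. Of their 5 listed markers 4 were in the table and summed to 346 CPM in the amacrine column. Nearly all of it was from Tfap2b (273 CPM) and Calb1 (72.1 CPM), which amacrine cells also express. Onecut1 (0.0622 CPM) and Onecut2 (0.725 CPM) were low there but also low in every other column. Their highest levels were 1.52 CPM (Onecut1, bipolar cells) and 2.19 CPM (Onecut2, cones). The part of horizontal cells in the amacrine column was not tested. Microglia markers summed to 34.1 CPM and astrocyte markers (3 of 4 in the table) to 0.539 CPM in the amacrine column. All 5 microglia markers and all 3 of these astrocyte markers were highest in the Müller column, with sums of 1233 CPM and 111 CPM. In rods the microglia markers summed to 564 CPM. The part of these cells in the Müller and rod levels was not tested.

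In ganglion cells, where Gad2 stood at 40.1% of its amacrine level, the 5 amacrine markers stood between 4.33% and 8.62% of theirs. Slc32a1 was within this range at 5.95%, and Gad1 below it at 0.651%. Markers of GABAergic amacrine subtypes (7 of 8 in the table) summed to 289 CPM in ganglion cells, 16.6% of the amacrine sum of 1734 CPM. Tac1, a tachykinin gene, gave 232 CPM of that sum and was at 47.1% of its amacrine level. The others were lower, with Npy at 5.17%, Th at 5.13%, Vip at 1.15% and Chat, Slc18a3 and Nos1 at 0. The part of amacrine RNA in the ganglion level of Gad2, which rests on 11 counts, was not tested.

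In rods, where Slc6a9 stood at 25.3%, the amacrine markers stood between 0.546% and 1.64% of their amacrine levels, except Meis2 at 31.5%. Gad2 (2.77%), Slc32a1 (2.07%) and Gad1 (0.948%) were closer to the other 4 markers. The 4 markers of glycinergic subtypes summed to 26.8 CPM in rods, 73.3% of the amacrine sum of 36.5 CPM, with 1 of 4 highest in amacrine cells. Most of the rod sum was Gjd2, a gap junction gene that was highest in rods (25.2 CPM), and Ebf3 was at 0 in rods. Slc17a8 was highest in Müller glia (12.7 CPM, against 0.518 CPM in amacrine cells). Ebf3 was highest in ganglion cells (3.42 CPM, against 0.435 CPM in amacrine cells). Dab1 was highest in amacrine cells (22.6 CPM). Among 143 genes with at least 300 amacrine counts and an amacrine level at least 4-fold over every class but rods, the median rod level was 1.35% of the amacrine level (quartiles 0.572% and 4.44%). The Slc6a9 value was at or above that of 92.3% of them, and Slc6a9 itself meets the limits of this set. Without isoform 3 the rod level of Slc6a9 was 18.9% of the amacrine level, a value not placed among these genes.

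**Figure D4:**
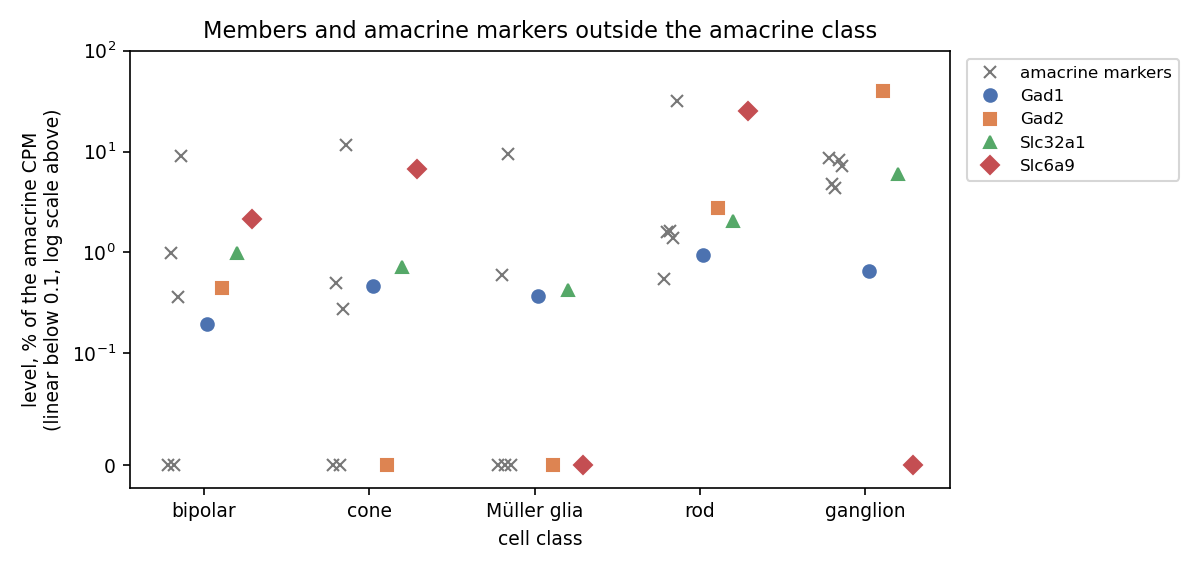
Level of 4 of the genes and of the 5 amacrine markers in each other class, as a percentage of the amacrine CPM (log scale above 0.1, linear below). Each point is 1 gene. Slc6a9 in rods (25.3%) and Gad2 in ganglion cells (40.1%) lie above all amacrine markers of their class except Meis2 in rods.

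The genes around the set were described from 7 lists of 33 genes, of which 32 were in the table and Slc18a2 was not. Of these 32, 5 (15.6%) were at least 4-fold higher in one class than in every other, against 11.6% of all genes. Müller glia held 4 of them, where the share of all genes was 5.29%. They were Slc6a13, the GABA transporter GAT2 (30.8 CPM), Glul, which makes glutamine (2049 CPM), Slc1a3, the glial glutamate transporter GLAST (56.6 CPM), and Slc17a8, the vesicular glutamate transporter VGLUT3 (12.7 CPM). Ganglion cells held Slc17a6, the vesicular glutamate transporter VGLUT2 (32.8 CPM). The share of all genes was 2.08% there. Glul and Slc1a3 are also on the Müller marker list, and Slc17a6 is on the ganglion marker list. For these genes the comparison with all genes is therefore not independent of how the lists were chosen. Slc17a8 is also on the list of markers of glycinergic amacrine subtypes. None of the 32 met the limit in amacrine cells (1.38% of all genes), bipolar cells (1.17%), cones (0.59%) or rods (1.09%).

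Among the GABA uptake genes, Slc6a11 (2.38 CPM) and Slc6a12 (0.663 CPM, 32 counts) had their highest level in amacrine cells. For Slc6a12 the 0 counts of ganglion cells allow 0.855 CPM, more than the amacrine level, so these classes could not be ordered. Its amacrine interval (0.454 to 0.936 CPM) also overlaps those of the 0 counts in Müller glia (0 to 0.601 CPM) and cones (0 to 0.505 CPM). Aldh5a1, the enzyme that follows GABA transaminase, was at 0.518 CPM in the amacrine class (25 counts), 0.411 CPM in cones (3 counts) and 0.326 CPM in Müller glia (2 counts), levels whose intervals overlap. Of the glycine genes, Gldc, of the cleavage system, stood at 3.26 CPM in Müller glia, against 0.124 CPM in amacrine cells. The 3 listed subunit genes of the vesicular proton pump, which drives VGAT, were highest in bipolar cells. Over the 32 genes the highest class was Müller glia for 12, amacrine cells for 6, bipolar cells for 6, cones for 3, ganglion cells for 3 and rods for 2.

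**Figure D5:**
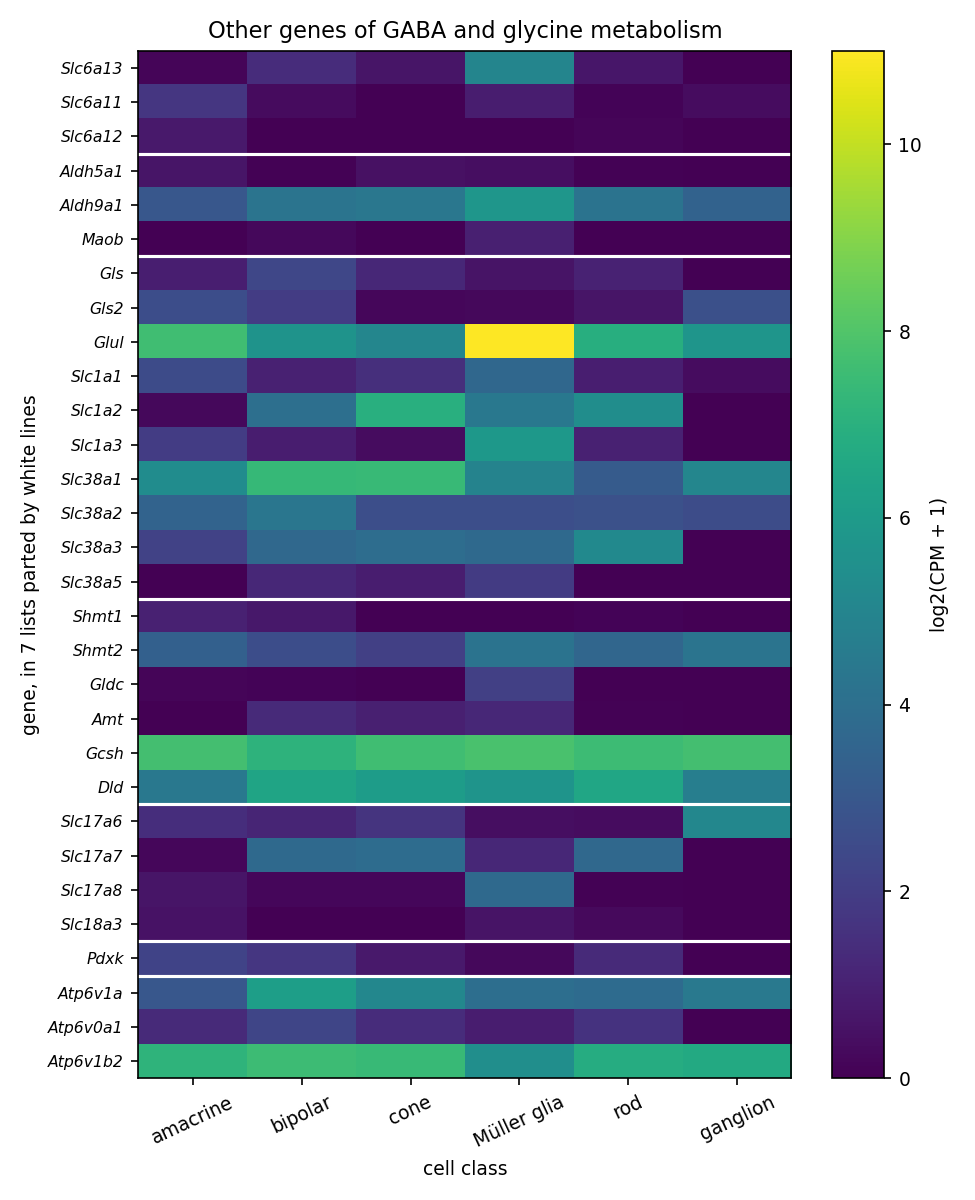
CPM of 30 of the 32 pathway genes in the 6 cell classes, grouped by list, with colour on the scale of log2(CPM + 1). Glul in Müller glia (2049 CPM) is the highest value, and no gene shown is at least 4-fold higher in amacrine cells than in every other class.

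Likeness of profile was measured as the overlap of shares of summed CPM over the 6 classes, for 6585 genes with at least 500 counts. Nearest to Gad1 were Vip (99.0%), Gtf2a1l (98.8%) and Glra3 (98.6%). Nearest to Gad2 were Tmem178 (98.6%), Cpne6 (98.3%) and Rbfox1 (97.8%), with 27.7%, 29.6% and 27.5% of their summed CPM in ganglion cells. Nearest to Slc32a1 were Tac2 (99.2%), Tfap2b (98.4%) and Fgf14 (98.2%). Nearest to Slc6a9 were Nav3 (95.5%), Frmd5 (88.7%) and Meis2 (88.2%), of which Nav3 had 17.6% and Meis2 19.7% of its summed CPM in rods. All these genes were chosen by this overlap, so class shares near those of the member follow from the choice. The ganglion share of Gad2 used for it rests on 11 counts. Among the 5 genes themselves, Gad1 and Slc32a1 overlapped the most (93.4%) and Gad1 and Abat the least (57.0%).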

How the data were processed

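The deposited table of isoforms by cell class holds whole-number counts made by the authors. Transcript models are credited to FLAIR, per the file contents, and the build mm10 is named in the submitters' processing notes. It is not given in the sources used here whether counts are reads or molecules, how cells were typed, or how doublets were treated. Columns name no library, so no test was made, the quasi-likelihood test planned for replicated columns included. Counts were summed by gene, scaled to CPM and described by rules of size: restriction at 80%, a fold of 4, and an isoform switch at 20 counts and 50 percentage points. A class at 0 was set to 3 counts for folds, which are then lower bounds. Models were compared with GENCODE M21. Of 13452 Ensembl genes, 13448 had a symbol. All 36426 models belong to isoforms with a rod count, so 7899 isoforms (2 of the 13) have no model. Named genes were the 6 members with every isoform of at least 10 counts, the 3 genes most like each member with at least 100 counts, and pathway genes past 4-fold, with other pathway and marker genes named after their values were seen. Results for 2 listed pathway genes are not reported here. Members and lists were chosen with earlier results of these data known. Alternatives used trimmed-mean and median-of-ratios scaling, and the rules were tested on simulated data. Python 3.11.15 and scipy 1.17.1 were used.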

Additional observations from a re-analysis of the deposited data

How the results depend on the processing

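No paired analysis was possible because each class column pools its libraries, and so none could be left out. Of 108 comparisons of 24 values with an alternative, 91 stayed within the counting interval, or within 1.5 times for counts, 14 moved further and 3 turned to another highest class. With Ensembl transcripts only, the amacrine share of Slc6a9 was 32.9% and its highest class was rod. That of Abat was 40.9%, with Müller glia highest, under the same setting and with models of 2 or more exons only. Without the model downstream of the stop codon, an alternative chosen after seeing the data, the share of Slc6a9 was 79.9%, and 5 genes passed 4-fold over rods (4 with it) and 3 over every other class (2 with it). Restriction at 60% called 4 of the genes and at 95% called 1, against 2 at 80%. A limit of 25 percentage points called 2 switches (Slc6a9 and Gad1) against 1 at 50, and for Gad1 the call rests on a tie for the most abundant amacrine isoform. With the downstream and intron-ending models left out, also chosen after seeing the data, the main inner-start isoform held 26.9% of the Slc6a9 counts in rods, against 17.4%. Median-of-ratios scaling put the amacrine levels at 76.3 CPM for Gad1, 6.81 for Gad2, 33.4 for Slc32a1 and 12.5 for Slc6a9. Ensembl transcripts alone left 43.8 CPM for Gad1, 1.80 for Slc6a9 and 0.311 for Abat. By Pearson correlation of log2(CPM + 1), 5 of the 12 genes named for likeness were named again. Depth limits the values of Abat in every class and those of all 5 genes in ganglion cells, cones and Müller glia, where the largest count was 11.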

Other observations

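Of the genes that mark subtypes of GABAergic amacrine cells, 6 of 7 were highest in the amacrine column. Slc18a3, the vesicular acetylcholine transporter, was the exception, at 0.489 CPM in Müller glia, on 3 counts, and 0.435 CPM in amacrine cells. Slc17a7, the vesicular glutamate transporter VGLUT1 of photoreceptors and bipolar cells, stood at 13.8 CPM in cones, 12.7 CPM in bipolar cells and 12.3 CPM in rods, against 0.145 CPM in amacrine cells. Slc1a2, a glutamate transporter, had 120 CPM in cones and 0.166 CPM in amacrine cells. Both were thus low in amacrine cells, but this did not hold for all genes of their lists. None of the 10 genes of glutamate and glutamine supply was highest in amacrine cells. Glul was nevertheless second there at 195 CPM, after Müller glia. Gls2 was second at 4.97 CPM, after 5.41 CPM in ganglion cells.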
